A study of Mus musculus with 12 samples.

Results

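The mitochondrial solute carriers are described here in mouse spinal cord, unlesioned or 4 days after a demyelinating injection. The members are the genes whose mouse symbol starts with Slc25a, a rule by name that uses no measured value, and 48 of the 54838 genes in the count tables met this rule. The family itself was chosen with earlier results of these data known. All 48 had at least 10 counts in at least 3 of the 12 libraries, and all 48 were among the 31109 genes tested. RNA sequencing was done on 4 groups of 3 libraries from mice at postnatal day 60. Control mice, named wildtype in the labels, were Olig1+/+;Tet1 fl/fl, and Tet1 mutant mice were Olig1cre/+;Tet1 fl/fl, so that both genotypes carried 2 floxed Tet1 alleles and only the mutant carried Cre under the Olig1 gene, which is active in the oligodendrocyte lineage. The group at 4 days post lesion (4dpl) came from ventrolateral spinal cord white matter injected with lysolecithin (LPC), a lipid that strips myelin, and the unlesioned group from the opposite side of the cord. Cells were freed with papain and spun through Percoll, a step that enriches oligodendroglial cells but does not sort them, so other cells of the cord and blood were still present. The labels name mice as the source without saying which libraries came from separate mice, so the p-values measure the spread between these libraries.

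Slc25a proteins sit in the inner mitochondrial membrane, with a few in the outer membrane or in peroxisomes, and exchange nucleotides, phosphate, carboxylates, amino acids, cofactors and metals between the cytosol and the matrix. The ADP/ATP carriers bring ADP in for ATP synthase and send ATP out, while the phosphate carrier supplies the phosphate. In nervous tissue, citrate exported from mitochondria feeds the fatty acid and sterol synthesis that myelin needs, and exported aspartate serves N-acetylaspartate synthesis in neurons. All of these proteins are encoded in the nucleus.

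Total counts were between 34805086 and 67251544 per library, and levels are given as CPM, counts relative to the library total after scaling by TMM (trimmed mean of M values, which assumes that most genes do not change). The 37 genes encoded in the mitochondrial genome had a count of 0 in every library. Tet1 measured 14.9 to 18.3 CPM in control unlesioned, 11.7 to 12.5 in control 4dpl, 9.94 to 16.4 in mutant unlesioned and 10.9 to 21.5 in mutant 4dpl libraries, so the gene-level count did not separate the genotypes. The floxed exon was not counted apart from the rest of the gene. Summed markers of activated phagocytes lay between 19540 and 43189 CPM at 4dpl against 2316 to 11501 CPM unlesioned, and the sums of microglial, astrocyte, mature oligodendrocyte and progenitor markers were also higher at 4dpl (two-sided exact permutation tests over 6 against 6 libraries, p = 0.00216 for phagocytes and for astrocytes, 0.00649 for microglia and for mature oligodendrocytes, and 0.0411 for progenitors). These tests pool the genotypes. Mature oligodendrocyte markers had a median log2 fold change of 0.23 in control and 0.96 in mutant, and progenitor markers 1.70 and 0.18. The highest mature oligodendrocyte sum was 71596 CPM, in mutant 4dpl replicate 3. Blood cell markers had lower values at 4dpl in control. The sum of 6 neutrophil markers was 34943 to 74024 CPM in control unlesioned against 19634 to 22775 in control 4dpl libraries, without overlap, and 19118 to 78393 against 14163 to 70743 CPM in mutant, with all 6 markers below 0 in the pooled log2 fold change and 1 of them called lower. The sum of 5 erythroid markers was 34187 to 99957 CPM against 12099.6 to 40863 in control and 18229 to 42729 against 27362 to 44337 in mutant. Over both genotypes neither sum passed the same permutation test (p = 0.0887 for neutrophil and 0.284 for erythroid markers). Their part in the results was not tested, and in a mixed preparation fewer cells of a type and less RNA per cell cannot be told apart. Control unlesioned replicate 1 stood apart from its group, with a TMM factor of 0.881 against 1.14 to 1.30 in the other unlesioned libraries, where the 4dpl libraries had 0.806 to 0.932.

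Slc25a5, the ADP/ATP carrier ANT2 of proliferating cells, was the most abundant member on a per-length scale. It averaged 229 ± 64.4 CPM per kilobase of exon (SD, n = 12 libraries). Slc25a4, the ADP/ATP carrier ANT1 of muscle and brain, followed with 93.6 ± 27.9. Slc25a39, a mitochondrial glutathione carrier, measured 78.5 ± 26.7 CPM per kilobase, Slc25a11, the oxoglutarate/malate carrier, 57.8 ± 11.8, and Slc25a3, the phosphate carrier, 46.4 ± 11.5. Slc25a5 lay above Slc25a4 and Slc25a11 above Slc25a3 in each of the 12 libraries. Slc25a4 lay above Slc25a39 in 10 of 12 libraries and Slc25a39 above Slc25a11 in 10 of 12, so these neighbours did not keep their order in every library. These 5 members made up between 59.7% and 69.0% of the family's summed level per kilobase in any library. The median member lay at 4.996 CPM per kilobase, and 9 members lay under 1, among them the germ-cell ADP/ATP carrier Slc25a31, the liver carrier Slc25a47 and the ornithine carrier Slc25a2.

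**Figure D1:**
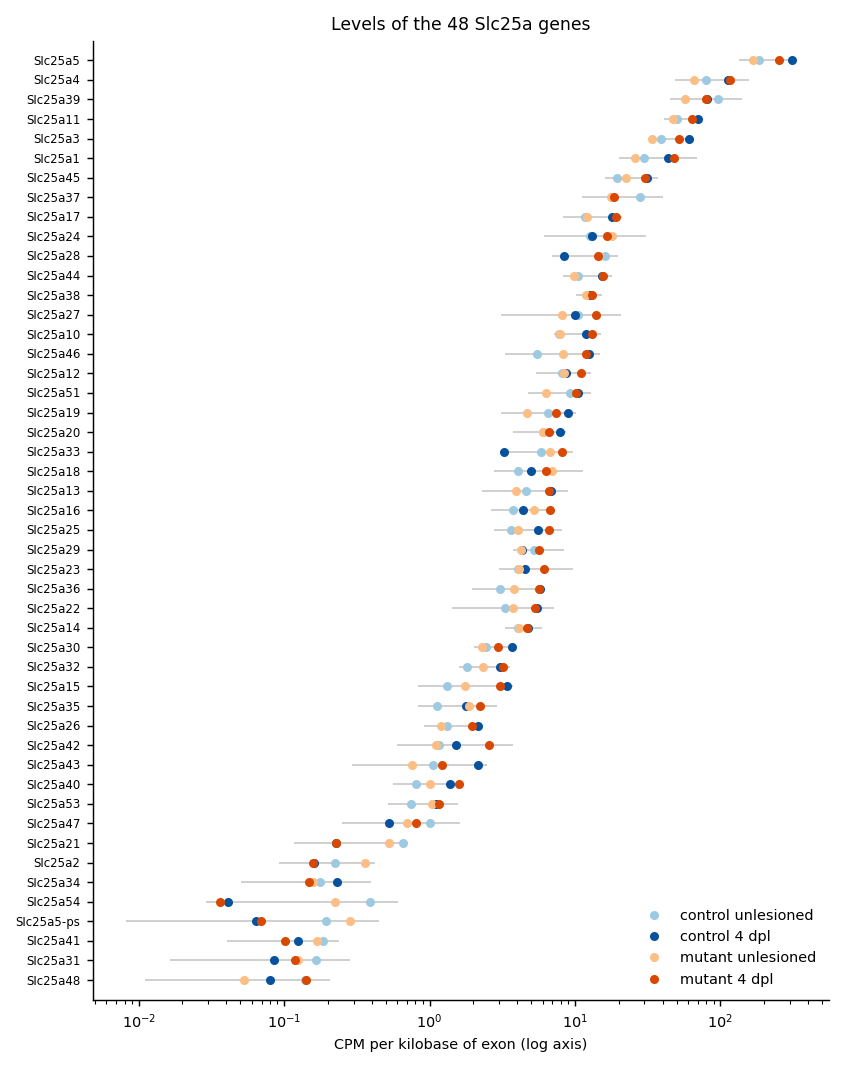
Levels of the 48 Slc25a genes in CPM per kilobase of exon on a log axis, ordered by the mean over 12 libraries. Points are the means of 3 libraries in each group and grey lines run from the lowest library above 0 to the highest. Slc25a5 and Slc25a4 lie at the top, and 9 genes lie under 1 CPM per kilobase.

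The first question of the design was how the carriers differed between lesioned and unlesioned cord. Over both genotypes, 17 members were higher and 3 lower at 4dpl (edgeR quasi-likelihood test on counts, called at p under 0.01 and Benjamini-Hochberg adjusted p under 0.05 over all genes tested), where 32.8% of all genes tested were called, 14.2% higher and 18.6% lower. The calls went with the level of the genes. Of the 34 members at 10 CPM or above, 15 were higher and 0 lower, which is 44.1% higher, and of all 9673 genes at that level 40.9% were higher and 0.445% lower. The median log2 fold change was 0.51 over these 34 members and 0.47 over those 9673 genes, and 18 of the 34 members lay above and 16 below that median of all genes. Genes under 1 CPM had a median log2 fold change of -1.60, and 33.4% of them were called lower.

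These calls rest on the scaling. The family held 0.221 ± 0.0120% of all counts in control unlesioned, 0.232 ± 0.00660% in control 4dpl, 0.219 ± 0.0192% in mutant unlesioned and 0.227 ± 0.0172% in mutant 4dpl libraries (SD, n = 3 each). With libraries scaled by their total counts, 1 member was higher and 5 lower, and the median of all genes at 10 CPM or above was 0.07 on the log2 scale. With TMM computed over genes at 10 CPM or above, 1 was higher and 6 lower, and with DESeq2's size factors (RLE) in edgeR 14 were higher and 4 lower. Slc25a15 was the member called higher under all 3 of these scalings, and Slc25a21, Slc25a54 and Slc25a5-ps were called lower under all 3. The other 16 members called higher kept a log2 fold change above 0 under each alternative, with 0.07 the lowest, and lay between 0.09 and 0.39 above the median log2 fold change of all genes at 10 CPM or above. Of the 22 alternative fits, 16 to 22 called each of the members called here, except for Slc25a13, called in 9, Slc25a42, in 11, and Slc25a5-ps, in 13. The values below are on the TMM scale and read beside that median of 0.47. Members at 1 to 10 CPM read beside the median of -0.05 at that level, and those under 1 CPM beside -1.60.

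**Figure D2:**
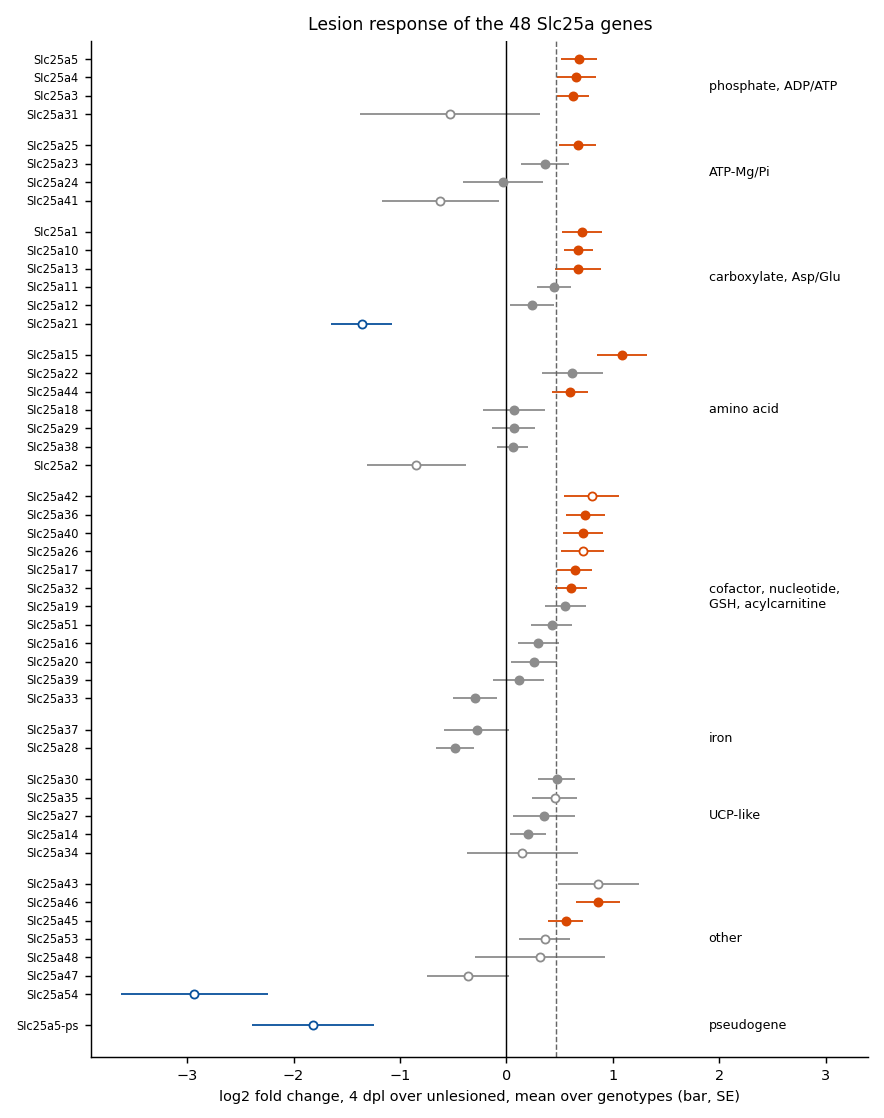
Log2 fold change of each Slc25a gene at 4dpl over unlesioned, averaged over genotypes, with its SE, grouped by transported substrate. Orange points were called higher and blue points lower, grey points were not called, open points have a mean under 10 CPM, and the dashed line is the median of 0.47 over all genes at 10 CPM or above. Slc25a15 lies farthest to the right of the dashed line among the called genes, and Slc25a21, Slc25a54 and Slc25a5-ps lie at the far left.

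Slc25a15, the ornithine/citrulline carrier that links cytosolic and matrix steps of arginine and ornithine metabolism, had the largest rise among the members called higher. It lies on chromosome 8 from 22375551 to 22398597 of GRCm38. It measured 10.5, 4.72 and 7.21 CPM in control unlesioned and 20.4, 17.8 and 19.05 in control 4dpl libraries, and 14.3, 7.09 and 8.11 in mutant unlesioned and 17.8, 12.9 and 21.04 in mutant 4dpl libraries. The control groups did not overlap, while mutant unlesioned replicate 1 lay above mutant 4dpl replicate 2. The log2 fold change was 1.08 ± 0.23 (adjusted p = 0.00559) over both genotypes, 1.35 ± 0.33 (adjusted p = 0.0348) in control and 0.81 ± 0.33 (adjusted p = 0.112) in mutant, where the test was not passed. It was called in all 22 alternative fits of the pooled comparison, with log2 fold changes from 0.62 to 1.29.

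Slc25a21, the 2-oxodicarboxylate carrier of lysine and tryptophan breakdown, went the other way. It lies on chromosome 12 from 56712634 to 57197472. It measured 3.27, 2.83 and 3.48 CPM in control unlesioned against 1.49, 0.572 and 1.29 in control 4dpl, and 2.30, 3.43 and 1.99 in mutant unlesioned against 1.14, 0.832 and 1.37 in mutant 4dpl libraries. Every 4dpl library lay under every unlesioned one. The log2 fold change was -1.36 ± 0.29 (adjusted p = 0.00539) over both genotypes and -1.52 ± 0.41 (adjusted p = 0.0404) in control, and in mutant it was -1.21 ± 0.41 (adjusted p = 0.0793). It was also called in all 22 alternative fits of the pooled comparison. All genes at its level, 1 to 10 CPM, had a pooled median of -0.05, and 11.6% of them were called lower.

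Slc25a54, a carrier without a well-described substrate on chromosome 3 from 109080469 to 109116687, and Slc25a5-ps, a pseudogene of Slc25a5, were the other members called lower, on few counts. Slc25a54 had 9, 40 and 55 counts in control unlesioned, 3, 3 and 5 in control 4dpl, 13, 28 and 19 in mutant unlesioned and 5, 3 and 0 in mutant 4dpl libraries. Its fitted log2 fold change was -2.93 ± 0.69 (adjusted p = 0.00751), a value that depends on the prior count at this depth. Slc25a5-ps had 26, 13 and 24 counts in control unlesioned, 9, 1 and 10 in control 4dpl, 17, 28 and 42 in mutant unlesioned and 4, 9 and 6 in mutant 4dpl libraries, with a log2 fold change of -1.82 ± 0.57 (adjusted p = 0.0239) that was called in 13 of the 22 alternative fits. As a pseudogene it may share reads with Slc25a5, and genes under 1 CPM as a class were lower at 4dpl.

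The promoters of 3 of the 7 members called in the control lesion comparison, Slc25a15, Slc25a21 and Slc25a28, are shown because TET1 acts on methylated cytosine at CpG sites. They had the smallest p-values there among the called members with a promoter listed. Slc25a46, with a smaller p-value than Slc25a21 and Slc25a28, had no promoter listed. Slc25a15 was called higher and Slc25a21 and Slc25a28 lower. Each run is the 250 bases before the most upstream RefSeq start on the minus strand of GRCm38.p6, from 5′ to 3′, with every CpG in capitals. They span chr8:22398622-22398871 for Slc25a15, chr12:57197473-57197722 for Slc25a21 and chr19:43674882-43675131 for Slc25a28.
Slc25a15: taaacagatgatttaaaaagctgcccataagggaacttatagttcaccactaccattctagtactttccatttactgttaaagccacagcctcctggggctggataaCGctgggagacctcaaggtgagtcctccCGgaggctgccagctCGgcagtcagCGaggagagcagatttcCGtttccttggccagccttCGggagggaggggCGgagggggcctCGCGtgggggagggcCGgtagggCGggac
Slc25a21: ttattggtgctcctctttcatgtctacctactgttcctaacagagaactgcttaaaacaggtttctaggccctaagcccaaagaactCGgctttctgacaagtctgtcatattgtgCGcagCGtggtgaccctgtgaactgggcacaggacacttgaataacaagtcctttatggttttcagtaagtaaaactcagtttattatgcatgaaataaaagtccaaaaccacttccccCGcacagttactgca
Slc25a28: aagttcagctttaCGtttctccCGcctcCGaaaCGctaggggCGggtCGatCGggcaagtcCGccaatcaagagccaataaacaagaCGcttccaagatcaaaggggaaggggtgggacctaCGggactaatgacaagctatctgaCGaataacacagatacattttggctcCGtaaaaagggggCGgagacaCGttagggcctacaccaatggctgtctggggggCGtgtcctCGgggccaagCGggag
The Slc25a15 stretch shown held 11 CpG sites and a GC content of 57.6%, that of Slc25a28 17 CpG sites and 55.6%, and that of Slc25a21 4 CpG sites and 43.2%. RefSeq gives Slc25a15 and Slc25a21 a further start downstream of the one shown. Around the downstream start of Slc25a15, the window from 250 bases before to 50 after held 51 CpG sites, 79.0% GC and the E-box CACGTG, where the window of the same length at the upstream start held 15 CpG sites and 60.7% and that of Slc25a28 24 CpG sites. At the downstream start of Slc25a21 it held 3 CpG sites and 41.7% GC, against 4 and 43.0% upstream. Methylation was not measured in these libraries. RefSeq gave 46 promoters for 36 of the 48 members, each from 250 bases before to 50 after the start, and the median promoter held 15 CpG sites and 59.3% GC, against 7 and 52.7% over all 32851 promoters of that length. The E-box CACGTG was found on either strand in 17.4% of member promoters and 7.15% of all, the NRF1 half-site core TGCGCA in 8.70% and 7.76%, and the ERR site AAGGTCA in 2.17% and 4.72%. The Slc25a21 stretch shown holds TGCGCA starting 136 bases before the start.

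Among the carriers that supply ATP synthase, 3 of 4 were called higher. This count and those of the classes below read beside the shares of all genes called higher. These were 14.2% of all genes tested and 40.9% of those at 10 CPM or above. Slc25a5, on chromosome X from 36795651 to 36798807, measured 378, 221 and 305 CPM in control unlesioned, 525, 544 and 465 in control 4dpl, 266, 285 and 279 in mutant unlesioned and 441, 420.3 and 392 in mutant 4dpl libraries. All 6 libraries at 4dpl lay above all 6 unlesioned libraries, and the 3 control 4dpl libraries lay above the 3 mutant 4dpl libraries. The log2 fold change with lesion was 0.68 ± 0.17 (adjusted p = 0.00919). Slc25a3 measured 259, 190.2 and 206 CPM in control unlesioned, 346, 337 and 325 in control 4dpl, 182, 191 and 188 in mutant unlesioned and 290.4, 307 and 267 in mutant 4dpl libraries, again without overlap between lesioned and unlesioned, and changed by 0.62 ± 0.15 (adjusted p = 0.00784) on the log2 scale.

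Slc25a4 measured 116 to 208 CPM (median 174) over the 6 unlesioned and 220.5 to 368 CPM (median 262) over the 6 lesioned libraries, a log2 fold change of 0.66 ± 0.18 (adjusted p = 0.0148). Its highest value, in mutant 4dpl replicate 3, fell in the library with the most mature oligodendrocyte marker RNA. Slc25a31 was near the limit of counting, with a log2 fold change of -0.53 ± 0.84 (adjusted p = 0.625).

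In the carboxylate and aspartate/glutamate class, 3 of 6 members were called higher and 1, Slc25a21, lower. Slc25a1, which exports citrate for fatty acid and sterol synthesis, measured 43.3 to 73.5 CPM (median 60.9) in unlesioned and 80.3 to 151 CPM (median 90.98) in 4dpl libraries, and its log2 fold change was 0.71 ± 0.19 (adjusted p = 0.0115). The dicarboxylate carrier Slc25a10 measured 24.9 to 30.8 CPM (median 26.7) in unlesioned and 38.4 to 51.8 CPM (median 42.1) in 4dpl libraries, with 0.68 ± 0.14 (adjusted p = 0.00467). Neither gene had overlapping libraries, and both lay a little above the shift of well-expressed genes. Citrin, Slc25a13, measured 8.76 to 22.5 CPM (median 17.1) in unlesioned and 20.4 to 34.03 CPM (median 25.6) in 4dpl libraries, which overlapped, and was called with 0.67 ± 0.21 (adjusted p = 0.0242), a call that held in 9 of the 22 alternative fits. Its paralog aralar, Slc25a12, had 0.24 ± 0.21 (adjusted p = 0.348) and the oxoglutarate/malate carrier Slc25a11 0.45 ± 0.16 (adjusted p = 0.0374), which did not pass the test.

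Of 7 amino acid carriers, 2 were called higher, Slc25a15 and Slc25a44, where 40.9% of all genes at 10 CPM or above were. Slc25a44, a branched-chain amino acid carrier, measured 29.4 to 48.4 CPM (median 32.98) in unlesioned and 47.3 to 64.5 CPM (median 53.6) in 4dpl libraries, and its log2 fold change was 0.60 ± 0.17 (adjusted p = 0.0161). The glutamate carriers Slc25a22 and Slc25a18 had log2 fold changes of 0.62 ± 0.28 (adjusted p = 0.0920) and 0.07 ± 0.29 (adjusted p = 0.851). The glycine carrier Slc25a38, which serves heme synthesis, measured 27.9 to 42.2 CPM (median 33.6) and 29.7 to 40.7 CPM (median 36.8), with a log2 fold change of 0.06 ± 0.15 (adjusted p = 0.772). Its libraries overlapped widely, and its value lay 0.41 below the median of well-expressed genes.

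The largest class, 12 carriers of cofactors, nucleotides, glutathione and acylcarnitines, had 6 members called higher and 0 lower. Slc25a36, a pyrimidine nucleotide carrier on chromosome 9 from 97074961 to 97111157, measured 36.4, 18.7 and 32.4 CPM in control unlesioned, 52.9, 55.5 and 57.2 in control 4dpl, 47.3, 28.2 and 34.3 in mutant unlesioned and 56.95, 56.9 and 48.4 in mutant 4dpl libraries. Lesioned and unlesioned libraries did not overlap, and the log2 fold change was 0.74 ± 0.18 (adjusted p = 0.00879). The other 5 were the coenzyme A carrier Slc25a42 (0.80 ± 0.26, called in 11 of the 22 alternative fits), the glutathione carrier Slc25a40 (0.72 ± 0.18), the S-adenosylmethionine carrier Slc25a26 (0.71 ± 0.20), the peroxisomal coenzyme A and NAD carrier Slc25a17 (0.64 ± 0.16) and the folate and FAD carrier Slc25a32 (0.61 ± 0.15), with values as log2 fold change ± SE. Slc25a20, which brings acylcarnitines in for fatty acid oxidation, had 0.26 ± 0.21 (adjusted p = 0.330) and overlapped between groups, and so did the NAD carrier Slc25a51 with 0.43 ± 0.20 (adjusted p = 0.0915).

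Among the ATP-Mg/phosphate carriers, most of them regulated by calcium, 1 of 4 was called higher. Slc25a25 measured 21.97 to 37.8 CPM (median 30.04) in unlesioned and 38.4 to 64.2 CPM (median 46.6) in 4dpl libraries, without overlap, a log2 fold change of 0.67 ± 0.17 (adjusted p = 0.0102). Its paralogs Slc25a23 and Slc25a24 had 0.36 ± 0.22 (adjusted p = 0.195) and -0.03 ± 0.37 (adjusted p = 0.950). None of the 5 carriers related to the uncoupling proteins passed the test, with log2 fold changes from 0.15 to 0.47. Of the outer membrane and less characterised members, Slc25a46 and Slc25a45 were called higher. Slc25a46, an outer membrane protein of mitochondrial dynamics and lipid exchange, measured 43.9, 17.8 and 27.8 CPM in control unlesioned, 80.2, 60.03 and 62.4 in control 4dpl, 55.4, 35.98 and 42.3 in mutant unlesioned and 62.04, 60.2 and 71.8 in mutant 4dpl libraries. All lesioned libraries were above all unlesioned ones, and its log2 fold change of 0.86 ± 0.21 (adjusted p = 0.00800) was the next largest rise among called members after Slc25a15.

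Over all members, 11 were higher in every 4dpl library than in every unlesioned library and 3 were lower, where 7.44% and 7.42% of all genes tested had these separations. Those shares are not matched for level and were not computed by level here. Under 1 CPM lay 14853 of all genes tested and 7 of the 48 members. Without control unlesioned replicate 1, the library that stood nearest to the lesioned ones, 24 members were called higher and 2 lower, beside 38.0% of all genes in that fit.

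The response was then read within each genotype. In control, 4 members were called higher, Slc25a15, Slc25a46, Slc25a36 and Slc25a32, and 3 lower, Slc25a54, Slc25a21 and Slc25a28, where 10.1% of all genes tested were called, 5.12% higher and 5.01% lower. Of the 34 members at 10 CPM or above, 11.8% were called higher in control, where 14.7% of all 9673 genes at that level were. With libraries scaled by total counts, 1 member was higher and 4 lower in control. With TMM computed over genes at 10 CPM or above, 2 were higher and 4 lower. Leaving out control unlesioned replicate 1 gave 18 members called, beside 21.8% of all genes in that fit. Leaving out control unlesioned replicate 2 or 3, control 4dpl replicate 1 or 2, or mutant unlesioned replicate 3 gave 0. Those fits called 0.003% to 2.7% of all genes. Leaving out control 4dpl replicate 3, mutant 4dpl replicate 1 or mutant 4dpl replicate 2 gave 2, beside 5.41%, 6.44% and 5.94%. In mutant, 0 members were called by edgeR, 19 had an unadjusted p under 0.05 where 33.8% of all genes did, and 0.135% of all genes tested were called. DESeq2 called 6 members in mutant and limma's voom 12, beside 10.4% and 21.9% of all genes in those fits. Leaving out control unlesioned replicate 1 or mutant unlesioned replicate 1 in edgeR gave 9 and 8, beside 13.3% and 10.2%.

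The 3 lesioned libraries did not overlap the 3 unlesioned ones for 25 members in control and 24 in mutant. In control 19 members were higher and 6 lower without overlap, where 16.5% and 21.4% of all genes were, and in mutant 20 were higher and 4 lower, where 18.8% and 23.2% were. These shares of all genes are not matched for level either. Log2 fold changes of the 3 members with the smallest p in mutant, Slc25a10, Slc25a1 and Slc25a42, were 0.73 ± 0.19 (adjusted p = 0.0557), 0.88 ± 0.26 (adjusted p = 0.0654) and 1.21 ± 0.36 (adjusted p = 0.0655). The same genes in control had 0.62 ± 0.19 (adjusted p = 0.0529), 0.54 ± 0.26 (adjusted p = 0.164) and 0.39 ± 0.36 (adjusted p = 0.445). Slc25a1 measured 81.1, 80.3 and 151 CPM and Slc25a42 12.6, 10.8 and 22.7 CPM in mutant 4dpl libraries, each highest in replicate 3, which had 71596 CPM of mature oligodendrocyte markers against 26621 and 30005 in the other mutant 4dpl libraries. Without that library the log2 fold changes in mutant were 0.54 ± 0.24 (adjusted p = 0.208) for Slc25a1, 0.84 ± 0.36 (adjusted p = 0.202) for Slc25a42 and 0.64 ± 0.21 (adjusted p = 0.148) for Slc25a10. Whether the genotypes differed was tested by the interaction of genotype and lesion.

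**Figure D3:**
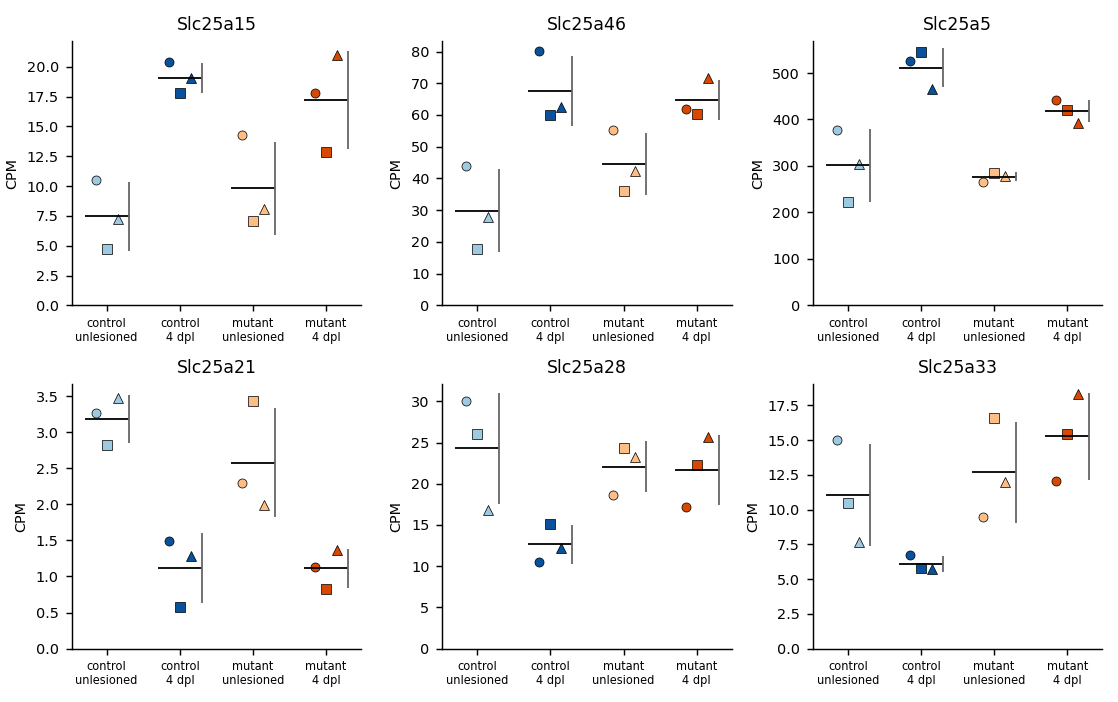
CPM of 6 Slc25a genes in each library, by group. Circles, squares and triangles are replicates 1, 2 and 3, black bars are means and grey bars run 1 SD to either side (n = 3). Slc25a15, Slc25a46 and Slc25a5 are higher and Slc25a21 is lower at 4dpl by their means in both genotypes, while Slc25a28 and Slc25a33 have their lowest values in the control 4dpl group.

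Slc25a28, mitoferrin-2, the iron carrier of non-erythroid cells on chromosome 19 from 43663822 to 43674881, was called lower in control. It measured 30.1, 26.01 and 16.8 CPM in control unlesioned and 10.5, 15.2 and 12.3 in control 4dpl libraries, which did not overlap. In mutant it measured 18.6, 24.4 and 23.3 CPM unlesioned and 17.2, 22.3 and 25.6 at 4dpl, which did. The log2 fold change was -0.94 ± 0.26 (adjusted p = 0.0414) in control and -0.03 ± 0.26 (adjusted p = 0.952) in mutant, against a median of 0.40 and 0.54 over all genes at 10 CPM or above. In the pooled comparison it had -0.48 ± 0.18 (adjusted p = 0.0457) with an unadjusted p of 0.0181, over the limit of 0.01, and it was called lower at -0.88 when libraries were scaled by total counts. In control it was called in 11 of 23 alternative fits and in none of those without a control library. Blood cell markers are given beside it. In control all 5 erythroid markers had a log2 fold change below 0 (median -1.36, 4 with an unadjusted p under 0.05) and so did all 6 neutrophil markers (median -1.46, 5 with an unadjusted p under 0.05), with 0 called in either list. In mutant the medians were 0.33 and -0.54, and the erythroid lesion change differed between genotypes by a median of 1.67, with 4 of 5 at an unadjusted p under 0.05 and 0 called. Their part in the values of Slc25a28 was not tested.

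Slc25a33, the pyrimidine nucleotide carrier that is induced by insulin-like growth factor signals, on chromosome 4 from 149744036 to 149774277, had a like pattern beside the same markers. It measured 15.01, 10.5 and 7.68 CPM in control unlesioned, 6.75, 5.81 and 5.73 in control 4dpl, 9.43, 16.6 and 12.004 in mutant unlesioned and 12.05, 15.4 and 18.3 in mutant 4dpl libraries. The control 4dpl group lay under each of the 9 other libraries. The lesion log2 fold change was -0.86 ± 0.30 (adjusted p = 0.0704) in control and 0.27 ± 0.29 (adjusted p = 0.526) in mutant. Of its exon length, 14.9% overlaps the gene Gm13068 on the opposite strand, and reads from the overlap cannot be assigned without strand.

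Between genotypes, 0 members were called by edgeR in unlesioned tissue, 0 at 4dpl and 0 in the interaction of genotype and lesion, and 0% of all genes tested were called in each. DESeq2 called 0, 1 and 0 members, and limma's voom with sample weights 0 in each. At an unadjusted p under 0.05 there were 2, 3 and 2 members, where 5.22%, 6.92% and 3.81% of all genes were. Slc25a33 at 4dpl was 1.32 ± 0.30 higher in mutant on the log2 scale, with an unadjusted p of 0.000566 and an adjusted p of 0.224 in edgeR, and higher in 3 of 3 libraries. DESeq2 called it, with an adjusted p of 0.0144, and the adjusted p over the 23 alternatives ran from 0.0144 to 0.758. Slc25a28 at 4dpl was 0.78 ± 0.26 higher in mutant (adjusted p = 0.434), and Slc25a16, a carrier linked to coenzyme A, 0.61 ± 0.27 (adjusted p = 0.686).

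The same pair had the smallest p-values in the interaction. The lesion change of Slc25a33 differed between mutant and control by 1.12 ± 0.42 on the log2 scale, and that of Slc25a28 by 0.92 ± 0.36, both with an adjusted p of 0.9999 in edgeR, so no difference in lesion response between genotypes was detectable for any member with 3 libraries a group. In unlesioned tissue Slc25a35 was 0.74 ± 0.30 higher in mutant (adjusted p = 0.875), with 31.3% of its exon length shared with Rangrf on the opposite strand, and Slc25a39 had -0.76 ± 0.34 (adjusted p = 0.946). All 5 erythroid markers were lower in mutant there (median -1.37), 4 of them with an unadjusted p under 0.05 and 0 called. Their part in the value of Slc25a39 was not tested. At 4dpl 4 members were higher in every mutant than in every control library, Slc25a28, Slc25a33, Slc25a16 and Slc25a42, and 4 were lower, Slc25a5, Slc25a3, Slc25a30 and Slc25a43, where 7.34% and 5.44% of all genes were. Phagocyte marker sums at 4dpl were 40993 to 43189 CPM in control and 19540 to 29848 in mutant libraries. All 8 phagocyte markers were lower in mutant (median log2 fold change -0.82) and all 10 mature oligodendrocyte markers higher (median 0.67). In each list 1 marker had an unadjusted p under 0.05 and 0 were called. Their part in these differences was not tested.

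Ratios of paralogs within a library do not depend on how libraries are scaled. The level per kilobase of Slc25a36 over that of Slc25a33, both pyrimidine nucleotide carriers, was 0.477, 0.351 and 0.831 in control unlesioned, 1.54, 1.88 and 1.963 in control 4dpl, 0.987, 0.334 and 0.561 in mutant unlesioned and 0.930, 0.726 and 0.520 in mutant 4dpl libraries. Only the control 4dpl group had Slc25a36 above Slc25a33, and its lowest ratio was over the highest ratio of the other 9 libraries. The pair was chosen with earlier results of these data known, so the separation is a description.

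**Figure D4:**
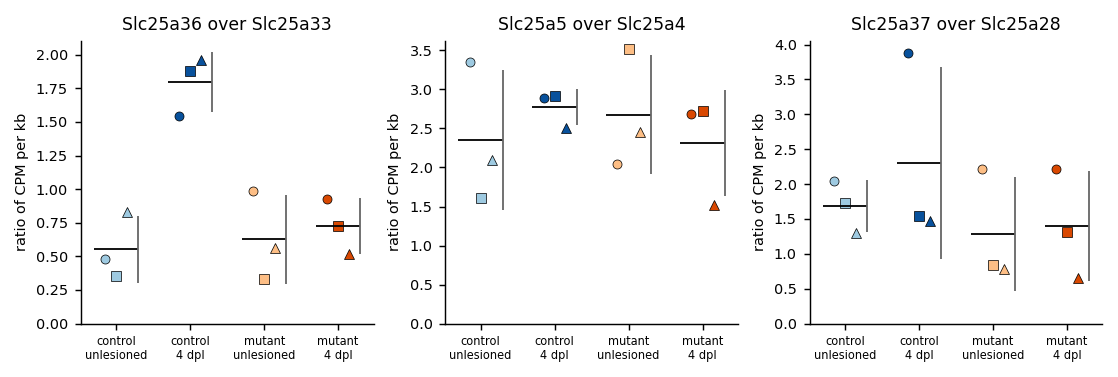
Ratio of CPM per kilobase between paralogs in each library, by group. Symbols are replicates 1 to 3, black bars are means and grey bars 1 SD to either side (n = 3). The Slc25a36 to Slc25a33 ratio lies between 1.54 and 1.963 in the control 4dpl libraries and under 1 in all others, while the other pairs overlap between lesioned and unlesioned libraries in each genotype.

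The other pairs overlapped between lesioned and unlesioned libraries within each genotype. Slc25a5 stood at 1.61 to 3.52 times Slc25a4 in unlesioned and 1.52 to 2.92 times in 4dpl libraries, so ANT2 was above ANT1 in each of the 12 libraries. Slc25a37, mitoferrin-1, over Slc25a28, mitoferrin-2, ran from 0.779 to 2.22 and from 0.659 to 3.88. Aralar over citrin, Slc25a12 over Slc25a13, ran from 1.11 to 3.83 unlesioned and from 1.10 to 2.13 at 4dpl. Slc25a39 was 42.1 to 173 times Slc25a40, the largest ratio among the paralogs. It ran from 62.2 to 173 in control unlesioned libraries, above the 45.1 to 54.5 of mutant 4dpl libraries, groups that no comparison here sets against each other. Slc25a22 over Slc25a18 ran from 0.317 to 1.59 unlesioned and from 0.611 to 2.16 at 4dpl.

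Several carriers varied more within groups than between them, beside markers of particular cell types. Slc25a37, which supplies iron for heme in erythroid cells, measured 244, 178 and 87.05 CPM in control unlesioned, 162, 93.2 and 71.9 in control 4dpl, 164, 81.2 and 72.2 in mutant unlesioned and 152, 117 and 67.2 in mutant 4dpl libraries. The sum of 5 erythroid markers, the globins and Alas2, was 89184, 99957 and 34187 CPM, 40863, 32713 and 12099.6, 42729, 18229 and 25719.8 and 44337, 35767 and 27362 in the same order. The 5 libraries with the most erythroid marker RNA were the 5 with the most Slc25a37, and all 5 erythroid markers were counted in every library. Slc25a39, with 386, 269.7 and 141 CPM in control unlesioned libraries, was also highest in the first of them. With lesion, Slc25a37 had -0.28 ± 0.31 (adjusted p = 0.470) and Slc25a39 0.12 ± 0.24 (adjusted p = 0.715), and the part of blood cells in these values was not tested.

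Slc25a24 reached 81.1 CPM in control unlesioned replicate 1, 93.6 in mutant unlesioned replicate 2 and 106 in mutant 4dpl replicate 2, and lay between 21.0 and 57.7 CPM in the other 9 libraries. These 3 libraries were among the 4 with the highest sum of 6 neutrophil markers, at 60197, 78393 and 70743 CPM. The remaining one, control unlesioned replicate 2, had 74024 CPM of those markers and 29.0 CPM of Slc25a24. Slc25a27, the brain carrier also called UCP4, was lowest in mutant unlesioned replicate 2 at 12.1 CPM and highest in mutant 4dpl replicate 3 at 82.1 CPM, which had the lowest and the highest sum of 10 mature oligodendrocyte markers at 14950 and 71596 CPM. Slc25a23 was highest in that last library too, at 51.5 CPM, as was the summed level of 8 neuron markers at 224 CPM.

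**Figure D5:**
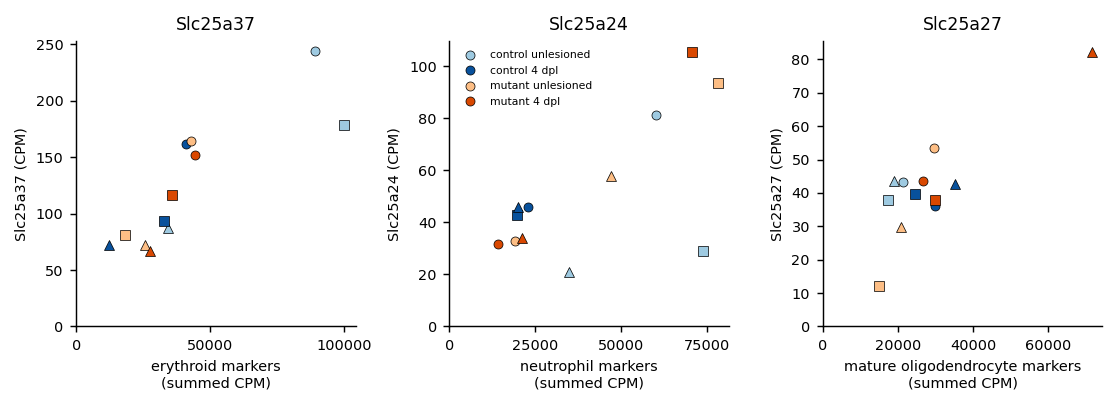
CPM of Slc25a37, Slc25a24 and Slc25a27 against the summed CPM of erythroid, neutrophil and mature oligodendrocyte markers, 1 point for each of the 12 libraries. Colours are the 4 groups and circles, squares and triangles replicates 1, 2 and 3. Slc25a37 is highest in the 2 control unlesioned libraries with the most erythroid RNA, and Slc25a27 is highest in mutant 4dpl replicate 3.

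Genes that work with the carriers were read from lists chosen with earlier results of these data known. Of 12 proteins that import carriers into the inner membrane, 5 were called higher in the pooled comparison, Tomm20 (0.79 ± 0.14), Tomm70a, Timm8b, Timm8a1 and Timm9, with a list median of 0.43. Of all genes at 10 CPM or above, 40.9% were called higher in that comparison. The outer membrane channels Vdac1 (0.81 ± 0.16), Vdac2 and Vdac3 were called higher, and Tspo was not (-0.07 ± 0.24). Among fatty acid entry and oxidation genes, 8 of 9 were called higher, with a median of 0.74 and a highest value of 0.96. The smallest p-values were those of Acadm (0.74 ± 0.13), Hadha (0.76 ± 0.14) and Crat (0.84 ± 0.18), while the acylcarnitine carrier Slc25a20 stood at 0.26.

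Of 4 malate-aspartate shuttle enzymes, the cytosolic Mdh1 (0.74 ± 0.14) and Got1 (0.75 ± 0.17) were called higher, and the mitochondrial Got2 (0.45 ± 0.16) and Mdh2 were not. Among 12 mitochondrial carriers with other names, Sfxn3 (0.98 ± 0.19), Mtch2 (0.73 ± 0.15) and the pyruvate carrier subunit Mpc1 (0.66 ± 0.14) were called higher and Ucp3 was called lower. In control the called members numbered 1 of 12 import proteins, 2 of 4 channels, 6 of 9 fatty acid genes, 2 of 4 shuttle enzymes and 2 of 12 other carriers, all of them higher, where 5.12% of all genes tested and 14.7% of those at 10 CPM or above were called higher in control. The pooled values read beside the shift of 0.47 that genes at 10 CPM or above had in the pooled comparison. The pooled counts read beside the 14.2% of all genes tested and 40.9% of those at 10 CPM or above called higher there.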

How the data were processed

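RNA from 12 libraries was sequenced as paired reads. According to the study's methods, the authors used BWA, with ribosomal and mitochondrial sequence among the targets, and featureCounts to count reads with a unique alignment on the exons of Ensembl genes (GRCm38). The submitters' processing notes name STAR, DESeq2 1.2.5 and mm10, so the aligner is not settled, and a strand setting is not given in the sources used here. The deposited values are raw counts per gene, not normalized.

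The fit used edgeR 4.0.16 in R 4.3.3 (filterByExpr over 4 groups, TMM, glmQLFit at its default settings, glmQLFTest, 1 mean per group over all 12 libraries). It ran over 31109 genes and was tested on simulated data. Genes were called at p under 0.01 and Benjamini-Hochberg adjusted p under 0.05. SEs are from the log2 fold change and F. Symbols came from Ensembl identifiers, and lengths are the exon lengths in the files. Marker sums were compared by two-sided exact permutation tests. Counting error is small at these depths except for members under 1 CPM, and the number of libraries limits precision.

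Alternatives were DESeq2 1.42.0, limma 3.58.1 with voom and sample weights, RLE factors, other filters, fits to the groups compared, replicate blocks, a log2 fold change of at least 1 and leaving out each library. Scaling by total counts and TMM over genes at 10 CPM or above were added after the data were seen. The members and lists were chosen with earlier results of these data known. Every member may be named, with values per library for members called in a lesion comparison, the 5 highest per kilobase, the 3 smallest p-values between genotypes and in the interaction, paralogs, and Slc25a23 and Slc25a44. From other lists the genes with the smallest p-values are named, at most 3 with values. Protein sequences were not analysed here. Slc25a52 was listed but not found in the count tables under that symbol. Results of 1 further list of genes are not reported here.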

Additional observations from a re-analysis of the deposited data

How the results depend on the processing

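The pooled lesion comparison, with 20 members called, gave 6 when libraries were scaled by total counts, 7 with TMM over genes at 10 CPM or above and 4 when a log2 fold change of at least 1 was also asked, and between 15 and 26 when each library was left out in turn. Under the first pair of settings the median log2 fold change of genes at 10 CPM or above was 0.07 and -0.02, against 0.47 in the main fit. Of all genes, 31.1% and 34.5% were called under that pair and 23.6% to 38% with each library left out. The cause of the lower member counts under that pair was not tested. In control, with 7 members called, DESeq2 gave 13 and voom with sample weights 22, beside 14.6% and 31.1% of all genes. No filter on low counts gave 4 and a fit to the groups compared 1, beside 7.02% and 4.52%. Total counts gave 5 and TMM over genes at 10 CPM or above 6, beside 8.99% and 14.8%. A log2 fold change of at least 1 gave 4. Leaving out each library gave from 0 to 18, beside 0.003% to 21.8% of all genes. In mutant, with 0 called, DESeq2 gave 6 and voom with sample weights 12, beside 10.4% and 21.9% of all genes. EdgeR with its newer quasi-likelihood option gave 4 and TMM over genes at 10 CPM or above 1, beside 14.2% and 4.44%. Leaving out each library gave from 0 to 9, beside 0% to 13.3% of all genes. Between genotypes at 4dpl DESeq2 gave 1, Slc25a33, where edgeR gave 0. The cause of the tool and left-out-library differences was not tested. Of the alternative values for the single genes named, 1119 kept their direction and their side of the threshold, 139 kept the direction but did not pass it, 43 passed it newly and 42 changed sign, all 42 for values not called by edgeR. In the pooled comparison 0 of the 20 called members changed sign in any of 22 fits and 18 of the 28 others did in at least 1. Scaling by total counts gave Slc25a12 -0.13, Slc25a18 -0.32, Slc25a38 -0.34, Slc25a20 -0.12, Slc25a23 -0.062 and Slc25a39 -0.25, and TMM over genes at 10 CPM or above gave Slc25a11 -0.041, Slc25a12 -0.23, Slc25a18 -0.45, Slc25a38 -0.45, Slc25a20 -0.23, Slc25a51 -0.054, Slc25a23 -0.16 and Slc25a39 -0.35. DESeq2 and RLE factors gave Slc25a18 -0.019 and -0.029 and Slc25a38 -0.033 and -0.041, and voom and no filter gave Slc25a24 0.29 and 0.062. With each library left out Slc25a18 ran from -0.070 to 0.37, Slc25a38 from -0.0023 to 0.16, Slc25a24 from -0.41 to 0.40 and Slc25a39 from -0.026 to 0.33. TMM over genes at 10 CPM or above gave Slc25a42 -0.070 in control and Slc25a33 -0.28 in mutant, where total counts gave Slc25a33 -0.22. In mutant Slc25a28 had 0.046 without a filter and 0.00 with the sample numbers of the study's methods as a block, and from -0.14 to 0.15 with each library left out.

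Replicate numbers were shared between groups. Deviations of same-numbered libraries correlated at 0.189, 0.052 and 0.189 in control and -0.03, 0.073 and -0.07 in mutant. Differently numbered libraries were not correlated for comparison, so these values cannot decide whether the numbers pair libraries. No pairing was used in the main fit. The labels do not say whether lesioned and unlesioned libraries came from the same mice. With the label's number as a replicate block 19 members were called in the pooled comparison, 7 in control and 0 in mutant, between genotypes and in the interaction. With the sample numbers of the study's methods as the block, 4 were called higher and 0 lower in control. That block kept 3 of the 7 main calls in control, so Slc25a54, Slc25a21 and Slc25a28 were no longer called lower. Members under 1 CPM rest on few counts, and 3 libraries a group limit what the interaction could detect.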
